A study of Mus musculus with 16 samples.

Results

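The comparison set adipocytes formed from interleukin-13 (IL-13) pre-treated precursors against adipocytes formed from untreated ones, both taken at day 6 of differentiation. It held 8 of the 16 libraries of the study, chosen by their labels: 4 from IL-13 pre-treated cells and 4 from untreated cells. Both groups were immortalized preadipocytes, a line of fat cell precursors, of wild type genotype and strain C57Bl6/J. In the labels they differed in the agent alone, Il13 for 16 h or none. The column headers number all untreated libraries before the IL-13 libraries, so the treatment also follows that order. The other 8 libraries, 4 from each treatment, came from the same kind of cells at day 0. Whether a group's libraries stem from different cultures, or the line from 1 clone, is not in the labels. The p-values therefore measure only how far these libraries scatter, and that scatter may be technical.

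IL-13 is a type 2 cytokine, released among others by innate lymphoid cells, T cells and eosinophils, that shares with IL-4 a receptor containing the subunit Il4ra. The receptor's kinases phosphorylate Stat6, which enters the nucleus and switches on genes such as Cish, a feedback inhibitor, and Ccl11, the eosinophil attractant eotaxin. Fat cell formation runs through Cebpb and Cebpd to Pparg and Cebpa, which maintain the genes of lipid storage, lipid breakdown and adipokine secretion. In this design the cytokine preceded differentiation, so the day 6 comparison asks which transcripts still differed after the precursors had become fat cells.

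The day 6 libraries held between 15253031 and 18112087 counts each. The cells carried the markers of fat cells in both groups. Fabp4, the fatty acid carrier of adipocytes, had 14394 ± 793 CPM (counts relative to the library size scaled within each day, mean ± SD, n = 4 here and below) in untreated and 15197 ± 401 CPM in IL-13 libraries, against 112 ± 8.16 CPM in untreated cells of day 0. Cidec and Plin1, proteins of the lipid droplet, and Cfd, the adipokine adipsin, had at most 0.115 CPM on average in untreated day 0 cells and at least 435 CPM in every day 6 library. The leukocyte marker Ptprc, the macrophage marker Adgre1, the endothelial marker Cdh5 and the epithelial markers Epcam and Krt5 had 0 counts in all 8 libraries, while Cd68 was near 2 CPM. In such bulk samples, fewer cells of a type and less RNA per cell cannot be told apart.

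A measure of nuclear RNA separated the 2 groups of libraries. It is the mean log2 CPM of 41 RNAs that stay in the nucleus or are known to keep introns, out of 50 listed. These 41 are the tested members of the lists of nuclear-retained long RNAs and of splicing factors and retained-intron transcripts described below, and 27 of them were called lower in IL-13 libraries, so the index is not independent of the comparison. It stood at 6.38, 6.25, 5.94 and 6.08 in untreated libraries 1 to 4 and at 5.60, 5.35, 5.16 and 5.53 in IL-13 libraries 1 to 4. Every IL-13 library was below every untreated one, and untreated libraries 1 and 2 were the highest. The read total that the authors' RPKM values imply exceeded the counts assigned to genes by 7.46%, 6.70%, 5.10% and 5.25% in untreated libraries 1 to 4 and by 4.81%, 4.33%, 4.63% and 4.48% in IL-13 libraries 1 to 4, again without overlap. What that excess consists of is not stated. Fits without untreated libraries 1 and 2, and with the index as a covariate, are given below. Neither can separate these differences from the treatment. Untreated libraries 3 and 4, at 5.94 and 6.08, still lay above every IL-13 library, and the index itself holds called genes.

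**Figure D1:**
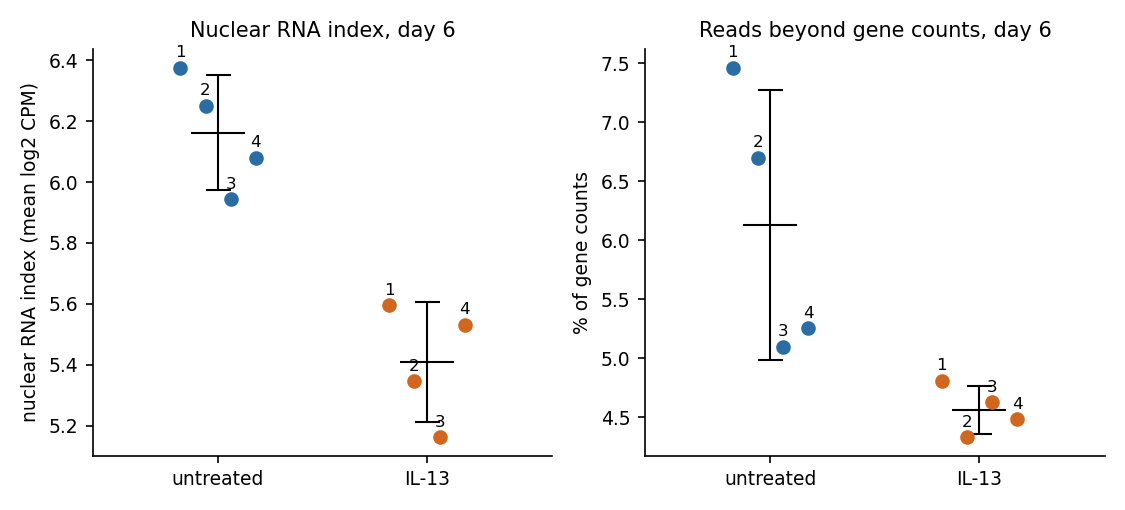
Nuclear RNA index (left, mean log2 CPM of 41 RNAs) and reads beyond the gene counts (right, as a percentage of the gene counts) in the 8 day 6 libraries. Points are libraries with their replicate numbers, and bars are the mean and SD of 4; neither vertical axis starts at 0. The IL-13 libraries sit below all untreated ones in both panels, and untreated libraries 1 and 2 are at the top.

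Of 12352 genes tested, 809 differed between IL-13 pre-treated and untreated cells at day 6 (6.55% of those tested; edgeR's quasi-likelihood test, Benjamini-Hochberg adjusted p under 0.05, here "called"). IL-13 libraries had higher levels of 273 of them (2.21%) and lower levels of 536 (4.34%). The higher genes differed by little: their median log2 fold change was 0.28, 8 were up by 1.5-fold or more and 0 by 2-fold or more. The lower genes had a median of -0.55, with 245 down by 1.5-fold or more, 122 by 2-fold or more and 17 by 4-fold or more. Over all genes tested the median was 0.01. The groups did not overlap in 1979 genes (16.0%), with the IL-13 libraries on top in 8.10% of genes tested and below in 7.92%, and 261 of the higher and 492 of the lower genes were among them.

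The number of calls depended on which libraries entered the fit. Leaving out 1 library gave 102, 60, 523 and 788 calls without untreated libraries 1, 2, 3 and 4, and 2328, 62, 205 and 320 calls without IL-13 libraries 1, 2, 3 and 4. Without untreated libraries 1 and 2 together 2 genes were called, Rsrp1 (-1.71) and Leng8 (-0.86), each at an adjusted p of 0.0301 (0.0159% of genes tested), with 1190 genes at an unadjusted p under 0.05. All 809 genes kept their direction in the remaining libraries, which are part of the full comparison, with medians of 0.21 for the higher and -0.45 for the lower genes. With only 2 untreated libraries left against 4 IL-13 libraries, this fit also had less power to call genes. No other pair of libraries was left out for comparison. The 2 libraries stood highest on the index, which holds genes that were called lower, so smaller falls without them were favoured by the choice. Once the index entered the model as a covariate, 0 genes passed edgeR's test and 939 had an unadjusted p under 0.05. In that fit 456 of the 809 kept their direction and the medians were 0.0017 and -0.06; the index and the treatment do not overlap between the groups, so the 2 cannot be told apart, and the covariate is built in part from genes that the comparison lowered. The scaling also moved the balance: with scaling to total counts 53 genes were higher and 1032 lower, and the median of all genes was -0.08.

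**Figure D2:**
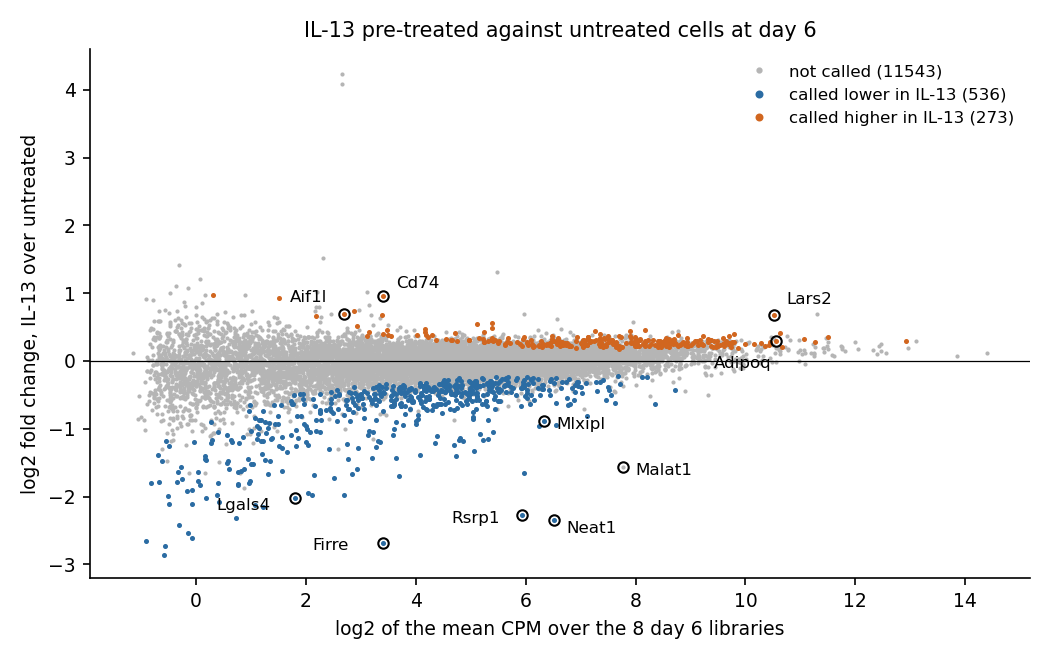
Log2 fold change (IL-13 over untreated, vertical axis) against log2 of the mean CPM over the 8 day 6 libraries (horizontal axis) for the 12352 genes tested. Orange marks the 273 genes called higher, blue the 536 called lower and grey the rest. The higher genes lie in a band near 0 and no called gene lies above 1, while the lower genes reach below -2.

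Among the called genes with higher levels after IL-13 and a mean log2 CPM of 1 or more, the largest fold belonged to Cd74 (ENSMUSG00000024610, chromosome 18, 60803848 to 60812646 of GRCm38), the invariant chain that escorts class II antigen-presenting molecules. Cd74 had 5.82, 8.50, 7.09 and 7.31 CPM in untreated libraries 1 to 4 and 10.2, 17.1, 14.3 and 14.4 CPM in IL-13 libraries 1 to 4. The difference was 0.96 in log2 (SE 0.16, adjusted p = 0.0115). Genes with the largest rises and falls were named only if their groups did not overlap. Separation of the groups in these genes was therefore set by the choice and is no further evidence. Lars2 (ENSMUSG00000035202, chromosome 9, 123366927 to 123462666), the leucyl-tRNA synthetase of mitochondria, had 1167, 1052, 1080 and 1213 CPM in untreated libraries and 1643, 1761, 2083 and 1744 CPM in IL-13 libraries. Its difference was 0.68 (SE 0.08, adjusted p = 0.00819). Lars2 and Aif1l were the 2 higher genes that were called whichever of the 8 libraries was left out. Of the 50-base stretches in the transcripts of Lars2, 0.196% also occur in annotated transcripts of other genes. Sequence outside annotated transcripts was not compared, so whether all its reads came from Lars2 mRNA was not tested.

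Several further genes among the 15 with the largest rises encode secreted or cell surface proteins. Crtac1, a secreted matrix protein, rose from 1.96 ± 0.689 to 3.71 ± 0.195 CPM (0.93, SE 0.21), although untreated library 3 stood at 2.97 CPM, above the other untreated ones. Itih4, a plasma protein of the inter-alpha-trypsin inhibitor family, was between 31.7 and 36.1 CPM in untreated and between 40.9 and 57.3 CPM in IL-13 libraries (0.56, SE 0.10). Hp, the haemoglobin-binding protein haptoglobin that liver and fat secrete, rose from 202 ± 22.2 to 275 ± 41.3 CPM (0.45, SE 0.11, adjusted p = 0.0353). The corneodesmosin gene Cdsn rose by 0.49 (SE 0.12) and Ccdc3, which encodes a secreted protein of fat and vessels, by 0.46 (SE 0.12). Raet1d, a ligand of the activating receptor of natural killer cells, rose by 0.43 (SE 0.11).

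Other members of these 15 act inside the cell. Ubd, a ubiquitin-like tag for protein breakdown, had 26.7, 31.0, 31.5 and 23.7 CPM in untreated libraries and 42.5, 37.1, 46.0 and 39.0 CPM in IL-13 libraries (0.54, SE 0.10, adjusted p = 0.0157). Akr1b7, an aldose reductase-like enzyme, rose from 7.96 ± 1.56 to 12.8 ± 1.04 CPM (0.68, SE 0.13). Bag1, a partner of Hsp70 chaperones, rose by 0.46 (SE 0.08), Nme2, a nucleoside diphosphate kinase, by 0.45 (SE 0.09), and Pir, an iron-binding nuclear protein, by 0.43 (SE 0.12). Some of these counts are uncertain. Of the 50-base stretches in their transcripts, 55.8% of those of Raet1d and 47.0% of those of Nme2 also occur in transcripts of other genes, and 69.1% of the exon bases of Ccdc3 and 27.2% of those of Akr1b7 lie opposite exons of another gene, with no statement that counting used the strand.

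**Figure D3:**
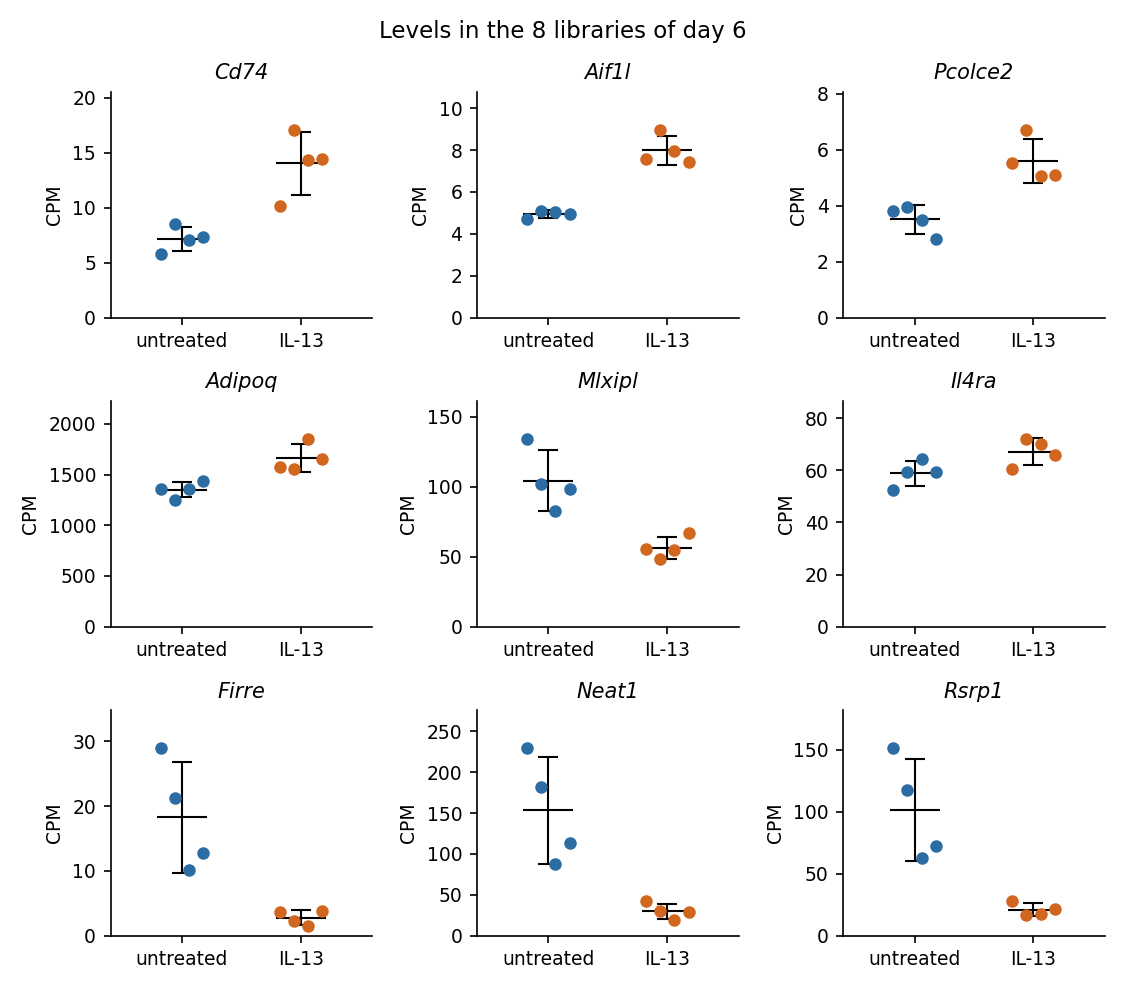
Levels of 9 genes in CPM (vertical axes, from 0) in the 4 untreated (blue) and 4 IL-13 (orange) libraries of day 6, in replicate order 1 to 4 from left to right within a group; bars are mean and SD. Cd74, Aif1l, Pcolce2 and Adipoq are higher and Mlxipl, Firre, Neat1 and Rsrp1 lower in all IL-13 libraries, with Firre, Neat1 and Rsrp1 highest in untreated libraries 1 and 2, and Il4ra overlaps.

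The genes that IL-13 had switched on before differentiation were followed into the fat cells. At day 0, 88 genes were raised 4-fold or more, a choice made on the 8 day 0 libraries alone. By day 6, 42 of them were below the count filter, 41 with a mean under 1 CPM, and 46 were tested. Of the 46, 4 were called higher, against 2.21% of all genes tested at day 6 (3 with scaling to total counts, 1 without untreated library 1, untreated library 2 or IL-13 library 2, 2 without untreated library 3 or IL-13 library 3, and 7 without IL-13 library 1), 0 lower, and 32 had a log2 fold change above 0. The 32 above 0 were 69.6% of the 46, against 51.6% of all genes tested at day 6. The median log2 fold change of the 46 was 2.77 at day 0 and 0.16 at day 6 (0.14 without untreated libraries 1 and 2, 0.08 with scaling to total counts). Over all genes tested at day 6 the median was 0.01 (-0.0024 without untreated libraries 1 and 2, -0.08 with scaling to total counts). At day 6 the 46 genes ranged from -0.29 to 0.69. The IL-13 effect was lower at day 6 than at day 0 in all 46 (test of the difference over 16 libraries, in which 4.95% of 13157 genes were called lower at day 6 than at day 0). The day 0 fold also chose these genes, so that count is a description.

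The 4 genes called higher on both days were Aif1l, Pcolce2, Ezr and Aldh1a7. Aif1l (ENSMUSG00000001864, chromosome 2, 31950139 to 31973442), an actin-bundling relative of the macrophage protein Aif1, had 4.70, 5.11, 5.03 and 4.95 CPM in untreated libraries 1 to 4 and 7.55, 8.98, 7.96 and 7.45 CPM in IL-13 libraries 1 to 4. The groups were far apart against the spread within each (0.69, SE 0.11, adjusted p = 0.0103). Pcolce2 (ENSMUSG00000015354, chromosome 9, 95637601 to 95698096), which enhances procollagen processing, had 3.82, 3.96, 3.48 and 2.81 CPM in untreated and 5.51, 6.72, 5.07 and 5.10 CPM in IL-13 libraries, without overlap (0.67, SE 0.15, adjusted p = 0.0306). Ezr, which links actin to the cell membrane, rose from 17.0 ± 2.26 to 22.1 ± 1.77 CPM (0.38, SE 0.10), a call that ended with scaling to total counts (adjusted p = 0.0843). Aldh1a7, an aldehyde dehydrogenase, rose from 490 ± 12.4 to 598 ± 16.6 CPM (0.29, SE 0.05). At day 0 their log2 fold changes had been 3.92, 3.76, 2.19 and 2.74.

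The other early targets described here did not pass the test at day 6. Serpinb1a, an inhibitor of neutrophil proteases, had reached 277 CPM in IL-13 cells at day 0 and was at 0.119 ± 0.102 CPM in untreated and 0.107 ± 0.0313 CPM in IL-13 cells at day 6, below the filter. Ccl11 had 1.5, 1.15, 1.10 and 0.619 CPM in untreated libraries and 0.659, 1.77, 0.527 and 0.917 CPM in IL-13 libraries, which overlap (-0.16, SE 0.38, adjusted p = 0.825). The protease inhibitor genes Serpina3g (0.37, SE 0.14, adjusted p = 0.111), Serpina3n (0.38, SE 0.15) and Serpina3c (0.46, SE 0.13, adjusted p = 0.0531) did not pass. Crispld2, a secreted protein, averaged 1.92 ± 0.206 and 2.65 ± 0.538 CPM (0.46, SE 0.19, adjusted p = 0.139). Rasgrf2, an activator of Ras, was at 0.592 ± 0.268 and 0.772 ± 0.129 CPM (0.40, SE 0.35). Of the 50-base stretches of Serpina3g, 15.5% also occur in transcripts of other genes.

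**Figure D4:**
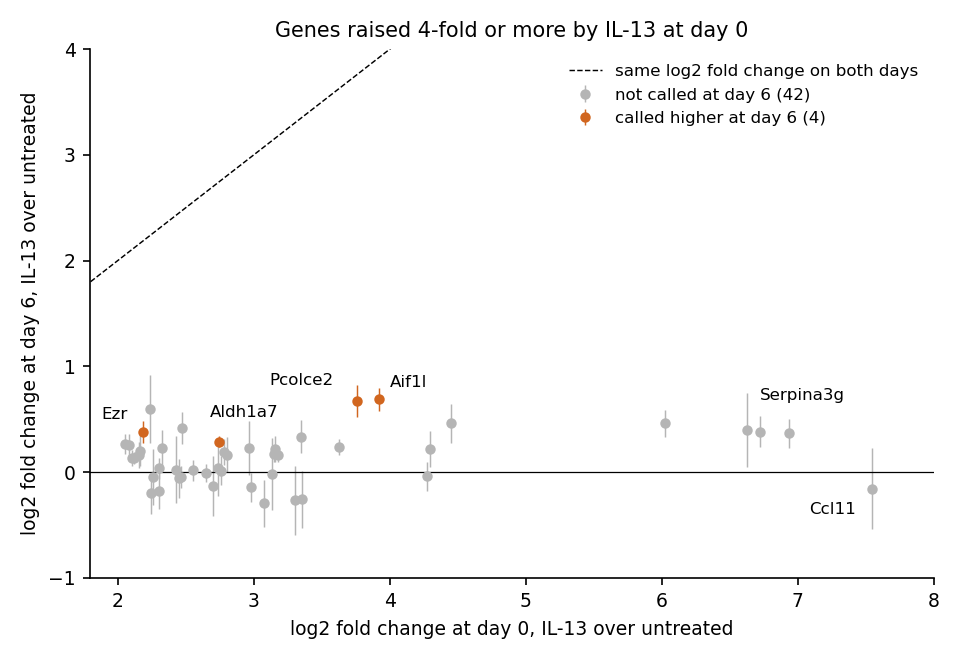
Log2 fold change at day 6 (vertical axis, with SE) against that at day 0 (horizontal axis) for the 46 genes raised 4-fold or more at day 0 and tested at day 6. Orange marks the 4 genes called higher at day 6, and the dashed line marks equal changes on both days. All 46 points lie far below that line, and the tested genes with the largest day 0 rises, Ccl11 and Serpina3g, were not called.

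Genes lowered at day 0 were followed in the same way. Of 198 tested genes that IL-13 had lowered 2-fold or more at day 0, 63 (31.8%) were lower at day 6, against 4.34% of all genes tested, and 2 higher, with a median log2 fold change of -0.55 (-0.38 without untreated libraries 1 and 2). Of the 16 tested genes lowered 4-fold or more, 7 were called lower, against the same 4.34%. They were the index RNAs Neat1, Firre and Dnm3os, and B130024G19Rik, BC005561, Clec2d and D930016D06Rik, which are not in the index. The index RNAs made up 10 of the 198 genes and 3 of the 16. On both days the nuclear RNA index was lower in IL-13 libraries, 5.95 ± 0.276 against 5.33 ± 0.0714 at day 0. Rspo2, an activator of Wnt signalling that IL-13 had lowered at day 0 (-2.03), was at 3.54 ± 0.592 and 3.93 ± 0.863 CPM at day 6 (0.15, SE 0.19, adjusted p = 0.641).

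Taken in the other direction, 200 of the 273 genes higher at day 6 had been higher at day 0 (73.3%, and 6.87% of the 2912 genes higher at day 0), where 23.7% of genes tested were called higher. Of the 536 genes lower at day 6, 358 had been lower at day 0 (66.8%, and 12.1% of the 2969 lower at day 0), where 24.2% were called lower. Opposite directions on the 2 days were seen in 6 of the 273 and 4 of the 536. The 2 days share no library, but the nuclear RNA index was lower in IL-13 libraries on both. It averaged 5.33 in IL-13 and 5.95 in untreated libraries at day 0, and 5.41 and 6.16 at day 6. The part of that difference in the agreement between the days was not tested.

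Upstream sequence was read for the genes that were higher on both days, since Stat6 binds the letters TTCNNNNGAA (TTC, any 4 bases, GAA, the same on both strands). In the 250 bases before the RefSeq start, 7 of the 201 promoters of genes higher on both days held the motif (3.48%), against 4.59% of the promoters of genes tested at day 6 and 5.85% of all promoters. Of the promoters of genes raised 4-fold or more at day 0, 10 of 77 held it (13.0%). Names matched the promoter table for 160 of 200 and 63 of 88 genes. Shown here, from RefSeq on GRCm38.p6, are the parts outside annotated exons for 3 genes with the largest rises at day 6 among those higher on both days, none of which holds the motif in its window, and 30 bases around the motif of Bag1, whose capitals mark it.
Aif1l, plus strand, chr2:31950053-31950138: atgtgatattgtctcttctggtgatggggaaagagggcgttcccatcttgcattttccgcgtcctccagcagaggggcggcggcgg
Pcolce2, plus strand, chr9:95637378-95637600: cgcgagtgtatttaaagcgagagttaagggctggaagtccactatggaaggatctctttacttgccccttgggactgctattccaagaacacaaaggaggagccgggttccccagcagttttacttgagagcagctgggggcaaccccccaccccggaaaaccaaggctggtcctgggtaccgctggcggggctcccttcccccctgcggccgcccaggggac
Itih4, plus strand, chr14:30886226-30886475: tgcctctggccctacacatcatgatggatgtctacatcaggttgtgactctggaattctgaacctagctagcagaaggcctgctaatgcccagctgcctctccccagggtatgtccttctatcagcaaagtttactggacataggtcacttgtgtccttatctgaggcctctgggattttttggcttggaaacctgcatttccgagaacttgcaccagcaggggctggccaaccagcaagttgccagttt
Bag1, minus strand, chr4:40948433-40948462: cagctcctccTTCCGGAGAAggagcgcgga
The Bag1 motif begins 158 bases before the start of Bag1 and lies within an exon of the neighbouring gene Chmp5. A match is a run of letters and was not tested for binding.

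Among 11 tested genes for receptors and signal carriers of IL-4 and IL-13, 0 were called, with a median log2 fold change of -0.04, and among 9 tested response genes 0 were called, with a median of -0.06. With 6.55% of all genes called, a count of 0 in lists this short does not set them apart from other genes. Il4ra had 52.3, 59.2, 64.2 and 59.4 CPM in untreated and 60.5, 72.1, 70.0 and 65.8 CPM in IL-13 libraries, and the groups overlap (0.19, SE 0.08, adjusted p = 0.136). Stat6 averaged 141 ± 5.40 and 144 ± 5.70 CPM (0.04, SE 0.05, adjusted p = 0.676). Cish, raised at day 0 by 2.78, was at 8.38 ± 1.15 and 9.54 ± 0.932 CPM (0.19, SE 0.12). Tgm2, a transglutaminase induced by IL-4 and IL-13 in many cells, averaged 570 ± 40.1 and 663 ± 70.6 CPM (0.22, SE 0.08, adjusted p = 0.110). Of 10 tested chemokines and 10 tested serine protease inhibitors 0 were called.

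In the list of mature fat cell genes 3 of 25 tested genes rose and 0 fell, against 2.21% higher over all genes, and 21 of the 25 lay above 0 with a median of 0.13 (0.07 without untreated libraries 1 and 2). Adipoq (ENSMUSG00000022878, chromosome 16, 23146536 to 23158028), the adipokine adiponectin, had 1362, 1252, 1360 and 1433 CPM in untreated and 1571, 1559, 1854 and 1656 CPM in IL-13 libraries. All IL-13 libraries were above all untreated ones (0.30, SE 0.07, adjusted p = 0.0345), although scaling to total counts ended the call (0.21, adjusted p = 0.0522). Agpat2, which makes phosphatidic acid for triglyceride, rose by 0.39 (SE 0.09) and Aoc3, an amine oxidase of the adipocyte surface, by 0.31 (SE 0.07).

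The regulators of fat cell formation did not pass the test. Pparg averaged 267 ± 17.8 and 277 ± 8.91 CPM (0.06, SE 0.06, adjusted p = 0.576) and Cebpa 250 ± 19.7 and 292 ± 22.3 CPM (0.22, SE 0.07, adjusted p = 0.0804). The fatty acid transporter Cd36 reached 0.21 (SE 0.06, adjusted p = 0.0528), the lipase Lpl 0.10 (SE 0.06), Plin1 0.18 (SE 0.07), Fabp4 0.08 (SE 0.06) and the insulin-responsive glucose transporter Slc2a4 0.01 (SE 0.06, adjusted p = 0.906). Leptin, Lep, was at 0.331 ± 0.189 and 0.274 ± 0.186 CPM, below the filter. Of 17 tested early adipogenic regulators and 14 tested progenitor genes 0 were called. With 6.55% of all genes called, a count of 0 in lists this short does not set them apart from other genes. Dlk1, which marks preadipocytes, had 1.31, 1.78, 1.35 and 1.29 CPM in untreated and 0.599, 0.366, 0.856 and 0.974 CPM in IL-13 libraries, lower in all 4 without passing (-1.03, SE 0.29, adjusted p = 0.0510). Other preadipocyte markers did not follow it. Cd34 averaged 0.961 ± 0.148 CPM in untreated and 1.35 ± 0.220 CPM in IL-13 libraries, and Ly6a 0.782 ± 0.118 and 0.953 ± 0.238 CPM. Pdgfra averaged 337 ± 34.9 and 318 ± 36.5 CPM. In untreated cells of day 0, which were scaled apart, it averaged 370 ± 17.7 CPM, so a difference this small between the days cannot be read.

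Lipid synthesis genes included 1 fall and 3 rises among 22 tested, where 4.34% of all genes tested fell and 2.21% rose. Mlxipl (ENSMUSG00000005373, chromosome 5, 135089890 to 135138382), which encodes ChREBP, the factor that turns on lipid synthesis when glucose is plentiful, had 134, 102, 82.6 and 98.6 CPM in untreated and 55.4, 48.5, 54.8 and 67.2 CPM in IL-13 libraries. No IL-13 library reached the lowest untreated one (-0.88, SE 0.14, adjusted p = 0.0125). Without untreated libraries 1 and 2 the change was -0.70 and was not called. The same list of 22 tested genes had as its rises Agpat2 and the fatty acid desaturases Fads1 (0.25, SE 0.06) and Fads2 (0.26, SE 0.07), and a median of 0.11. Of 18 tested thermogenic genes 1 rose and 0 fell, against the same shares of all genes. The rise was in Elovl3, which elongates fatty acids in brown and beige fat (0.32, SE 0.07). Ucp1, the uncoupling protein of those cells, was between 23.4 and 40.1 CPM in untreated and between 34.0 and 57.3 CPM in IL-13 libraries, which overlap (0.39, SE 0.19, adjusted p = 0.219). Of 16 tested lipolysis genes 0 were called, against 6.55% of all genes tested. A count of 0 in so short a list does not set it apart from other genes.

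Mitochondrial and ribosomal protein genes included small rises. Of 26 tested nuclear genes of the respiratory chain 4 rose, against 2.21% of all genes tested, 0 fell, and 25 lay above 0, against 51.6% of all. The median was 0.19 (0.12 without untreated libraries 1 and 2). The 4 were Ndufb8 of complex I (0.29, SE 0.07), Cycs, which is cytochrome c (0.26, SE 0.07), Cox5a of complex IV (0.25, SE 0.07) and Atp5c1 of the ATP synthase (0.24, SE 0.06). Of the 13 genes in mitochondrial DNA, mt-Co3 rose (0.35, SE 0.08), though 99.9% of its 50-base stretches also occur in other annotated transcripts. Of 23 tested fatty acid oxidation genes 0 fell and 3 rose: Cpt1a, the gate of fatty acid entry into mitochondria (0.22, SE 0.06), the thiolase Acaa2 (0.27, SE 0.07) and the reductase Decr1 (0.26, SE 0.06). Of 17 tested glycolysis genes, 22 of the tricarboxylic acid cycle and branched-chain amino acid breakdown and 22 of cholesterol synthesis 0 were called. Over all genes tested 6.55% were called. Values for 2 members of these lists were 0.31 (SE 0.09) in Tpi1, a glycolytic isomerase, and 0.21 (SE 0.06) in Mdh1, a malate dehydrogenase.

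Of 24 tested cytosolic ribosomal protein genes 6 rose and 0 fell, against 2.21% higher over all genes tested, and 23 lay above 0, against 51.6% of all, with a median of 0.27. Rps3 had 343, 352, 373 and 381 CPM in untreated and 414, 446, 477 and 404 CPM in IL-13 libraries, with no overlap (0.26, SE 0.06, adjusted p = 0.0370). Rises were also called in Rpl3 (0.28), Rpl7 (0.28), Rpl30 (0.25) and Rpl4 (0.25). Between 10.7% and 35.0% of the 50-base stretches of these last 4 also occur in other transcripts. Without untreated libraries 1 and 2 none of the rises named for fat cell, mitochondrial and ribosomal genes remained called, and each was lost under scaling to total counts too, except those of Agpat2, Elovl3 and mt-Co3.

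**Figure D5:**
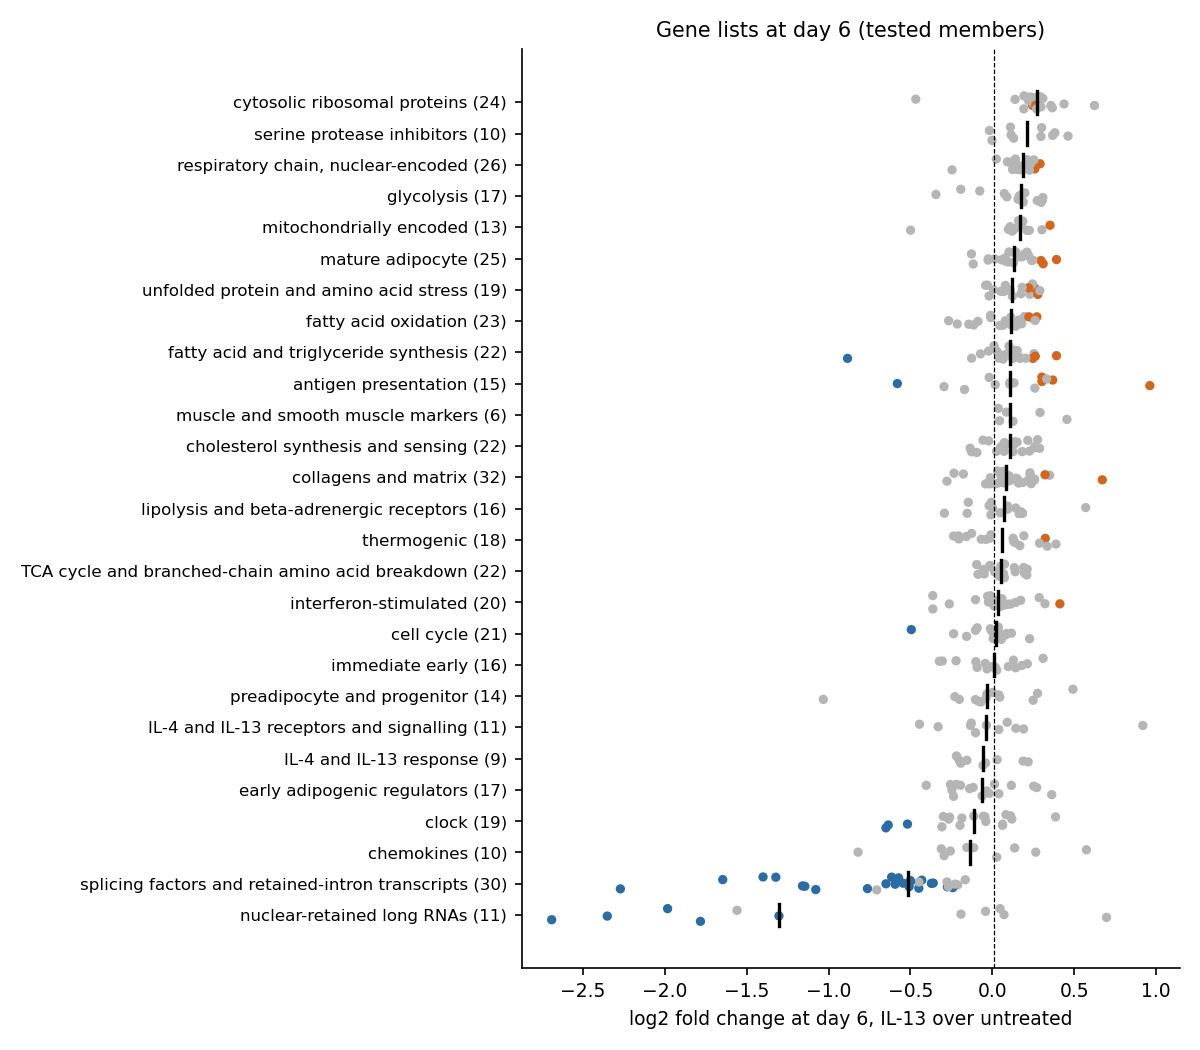
Log2 fold change at day 6 (horizontal axis, IL-13 over untreated) of every tested member of the lists with at least 6 tested members (number tested in parentheses), ordered by median. Orange marks members called higher, blue called lower, grey neither; the short line is the list's median and the dashed line that of all genes tested. Splicing factors and most nuclear RNAs lie to the left, and ribosomal proteins have the highest median.

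Antigen presentation genes moved both ways. Of 15 tested members 4 rose (3 with scaling to total counts) and 1 fell, against 2.21% higher and 4.34% lower over all genes tested, with a median of 0.11. Beside Cd74, B2m, the light chain of class I molecules, had 339, 337, 342 and 318 CPM in untreated and 393, 420, 438 and 395 CPM in IL-13 libraries, with no overlap (0.30, SE 0.06, adjusted p = 0.0158). The class I gene H2-D1 rose by 0.37 (SE 0.09), with 12.8% of its 50-base stretches shared with other transcripts, and the peptide transporter Tap1 by 0.30 (SE 0.08, adjusted p = 0.0486). Nlrc5, the activator of class I genes, fell from 14.0 ± 1.05 to 9.38 ± 1.70 CPM (-0.58, SE 0.13, adjusted p = 0.0258). Of 20 tested interferon-stimulated genes 1 rose, the guanylate-binding protein Gbp2 (0.41, SE 0.11). Its groups, at 22.6 ± 2.05 and 30.1 ± 4.71 CPM, overlap.

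Some genes of protein folding and matrix were higher, where 2.21% of all genes tested were. Of 19 tested genes that answer unfolded protein or amino acid shortage 3 rose and 0 fell: the chaperones Pdia4 (0.28, SE 0.07) and Calr (0.26, SE 0.07) and the serine synthesis enzyme Psat1 (0.22, SE 0.06). Those 3 calls, and that of Gbp2, ended with scaling to total counts. Of 32 tested collagen and matrix genes 2 rose, Pcolce2 and Lama4, a laminin chain of adipocyte basement membranes (0.32, SE 0.07, adjusted p = 0.0244), and 0 fell.

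Some genes of the circadian clock and 1 cell cycle inhibitor were lower. Of 19 tested clock genes 3 fell, against 4.34% of all genes tested, and 0 rose. Per3, a clock repressor, had 28.3, 26.6, 23.0 and 26.2 CPM in untreated and 17.9, 18.4, 11.7 and 18.8 CPM in IL-13 libraries, with no overlap (-0.64, SE 0.13, adjusted p = 0.0249). Per2, its relative, fell from 22.2 ± 1.78 to 15.5 ± 3.02 CPM (-0.52, SE 0.12) and Npas2, a clock activator, from 14.9 ± 1.71 to 9.48 ± 1.54 CPM (-0.65, SE 0.13). Without untreated libraries 1 and 2 the changes of Per3, Per2 and Npas2 were -0.57, -0.46 and -0.62 and were not called. Of 21 tested cell cycle genes 1 was called, against 6.55% of all genes tested. That gene was Cdkn1b, the inhibitor p27, which fell from 66.2 ± 5.07 to 46.9 ± 4.96 CPM (-0.49, SE 0.08, adjusted p = 0.0133). Of 16 tested immediate early genes 0 were called, against the same 6.55%. Counts this small set neither list apart from other genes.

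Nuclear RNAs and transcripts of RNA-processing factors included large falls. Their tested members are the genes of the nuclear RNA index, so that their falls and the lower index are the same measurement. The other 509 of the 536 lower genes, and 14 of the 17 that fell 4-fold or more, are not in the index. Firre (ENSMUSG00000085396, chromosome X, 50555744 to 50635321), an X-linked RNA that stays at chromatin, had 29.1, 21.2, 10.1 and 12.8 CPM in untreated and 3.60, 2.32, 1.45 and 3.84 CPM in IL-13 libraries (-2.69, SE 0.41, adjusted p = 0.0146). Neat1, the scaffold of paraspeckles, had 230, 182, 87.8 and 113 CPM in untreated and 42.0, 30.1, 19.3 and 28.5 CPM in IL-13 libraries (-2.35, SE 0.37, adjusted p = 0.0205). In both, untreated libraries 1 and 2 were the highest of all 8 and the lowest untreated library was still above every IL-13 library. Without those 2 libraries the changes were -2.04 and -1.75 and were not called. Malat1, a nuclear speckle RNA, spread from 206 to 452 CPM in untreated and from 72.8 to 171 CPM in IL-13 libraries and did not pass (-1.56, SE 0.37, adjusted p = 0.0536).

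Of 11 tested nuclear-retained long RNAs 5 fell, against 4.34% of all genes tested, 0 rose and 3 lay above 0, with a median of -1.30. The summed level of the list was not lower after IL-13, at 1752 to 3894 CPM in untreated and 2508 to 5156 CPM in IL-13 libraries. Most of that sum came from Gm42418, named here after its values were seen, at 1926 ± 1052 and 3121 ± 1219 CPM (0.70, SE 0.45, adjusted p = 0.366). The sum therefore describes mainly Gm42418, also a member of the index, and not the other listed RNAs. Whether all reads of Gm42418 came from that RNA was not tested. Beside Firre and Neat1 the 5 were Dnm3os, the precursor of microRNAs of the miR-199 and miR-214 families (-1.98, SE 0.33), Kcnq1ot1, which silences imprinted neighbours (-1.30, SE 0.32), and Snhg14, host of small nucleolar RNAs (-1.78, SE 0.33). Of 30 tested splicing factors and retained-intron transcripts 22 fell, against the same 4.34%, 0 rose and 0 lay above 0, with a median of -0.51. Rsrp1, an arginine- and serine-rich protein gene, had 152, 117, 62.7 and 72.8 CPM in untreated and 28.3, 17.0, 17.2 and 21.2 CPM in IL-13 libraries (-2.27, SE 0.32, adjusted p = 0.0155). The splicing kinases Clk2 and Clk4, whose transcripts are held in the nucleus with introns, fell as well (-0.59, SE 0.09 for Clk2 and -0.76, SE 0.13 for Clk4). Clk2 had 21.8, 22.5, 19.0 and 23.7 CPM in untreated and 15.5, 13.8, 13.7 and 14.7 CPM in IL-13 libraries, so that its untreated libraries 1 and 2 did not stand out. Without those libraries the change of Clk2 was -0.58 and was not called. Tra2a (-0.50, SE 0.09), Tia1 (-1.08, SE 0.18), Ccnl2 (-1.65, SE 0.26) and Leng8 (-1.18, SE 0.16) also fell.

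The other named falls came from genes of varied function. Lgals4, a galectin of gut epithelium, had 8.14, 5.80, 3.29 and 5.23 CPM in untreated and 1.74, 1.28, 1.05 and 1.43 CPM in IL-13 libraries (-2.02, SE 0.27, adjusted p = 0.00819). It was the called member among 2 tested genes of the epithelial marker list, whose defining markers Epcam and Krt5 were at 0 counts. Sec31b, a part of the coat of transport vesicles, had 3.13, 2.64, 2.58 and 3.54 CPM in untreated and 1.14, 1.16, 0.790 and 1.03 CPM in IL-13 libraries (-1.52, SE 0.20, adjusted p = 0.00819). In Sec31b untreated library 4 was the highest, and the change was as large without untreated libraries 1 and 2 (-1.58), though not called there. Klhdc8b (-2.16, SE 0.37), Dnhd1 (-1.72, SE 0.27), Eml5, a microtubule-associated protein (-1.68, SE 0.29), Spag1 (-1.66, SE 0.33), Col20a1, a collagen (-1.48, SE 0.23), Ints6l (-1.45, SE 0.25), Fam193b (-1.43, SE 0.17) and Paxbp1 (-1.40, SE 0.20) completed the 15 largest called falls, counting genes that average at least 1 in log2 CPM, do not overlap between groups and have a proper symbol. In Dnhd1 22.6% of the 50-base stretches occur in other transcripts, and 20.7% of the exon bases of Paxbp1 lie opposite another gene. In all, 48 of the 536 lower genes were called whichever library was left out.

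The genes that moved differed in kind from the rest. The lower genes had a median of 6173.5 exon bases and the higher genes 3146, against 4455 over all genes tested. Noncoding genes made up 8.21% of the lower and 0.733% of the higher genes, against 4.51% of all. The untreated mean level had a median of 20.2 CPM in the lower and 166 CPM in the higher genes, against 26.9 CPM over all. These shares describe called genes, and the chance of a call depends on level and length.

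The test of the difference asked where the IL-13 effect at day 6 was unlike that at day 0. Of 13157 genes, 1061 (8.06%) were called, 410 with a higher (3.12%) and 651 with a lower effect at day 6 (4.95%). By scaling to total counts this split was 516 and 498. Among the 273 genes higher at day 6 the difference was called in 29, and among the 536 lower ones in 28. The 5 genes with the smallest adjusted p and a lower effect at day 6 included Daglb, a lipase that makes an endocannabinoid, with 19.7 ± 1.82 and 19.6 ± 1.10 CPM at day 6 against a day 0 log2 fold change of 2.65, and Enpp3, an ectonucleotidase, with 0.22 (SE 0.12) against 3.16. In Daglb 24.1% of the exon bases lie opposite another gene. The other 3 were Serpina3g, Aldh1a7 and Aif1l.

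The 5 genes with the smallest adjusted p and a higher effect at day 6 had all been lowered by IL-13 at day 0. They were Rspo2, the semaphorin receptor Nrp2, the peptidase Mme, Gas2, a cytoskeletal protein, and Slc1a3, a glutamate transporter. At day 6 Nrp2 was at 173 ± 4.58 and 175 ± 12.8 CPM, Mme at 80.8 ± 6.10 and 82.1 ± 7.29 CPM, Gas2 at 7.64 ± 1.10 and 8.44 ± 0.546 CPM, and Slc1a3 at 131 ± 4.72 and 126 ± 6.47 CPM. Their groups overlap at day 6, with log2 fold changes of 0.01, 0.02, 0.14 and -0.05 (SE 0.06, 0.08, 0.12 and 0.06). The opposite direction on the 2 days was seen in Ccdc3, called lower at day 0 (-1.09) and higher at day 6, and in Gbp2 (-0.69 at day 0), each with a called difference.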

How the data were processed

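RNA-seq of 16 libraries was measured, 8 of them at day 6 (4 per group), grouped by the labels' agent and day. The authors deposited raw counts per gene ("total counts"), RPKM and TPM values per the file headers, made from trimmed reads on build mm10 per the submitters' processing notes. No label or header used here names the aligner, the annotation or the strand setting. The deposited counts were tested, the deposited RPKM values gave the implied read totals, and the deposited TPM values gave marker levels kept for reference. Totals ran from 15253031 to 18112087 counts at day 6, which sets the counting error.

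Genes passing edgeR 4.0.16's filter (minimum count 10, minimum total 15) were fitted with TMM scaling and the quasi-likelihood test in R 4.3.3, within each day, with Benjamini-Hochberg adjustment over all genes tested. The difference between the days was a contrast over all 16 libraries; the 2 days were deposited in separate tables of raw counts. Fold changes are log2 of IL-13 over untreated, SE comes from the test statistic, and CPM values use library sizes scaled within each day. Levels of the 2 days are therefore not on a common scale. On simulated data with known changes the day 6 test recovered 81.0% of 1.5-fold and 88.0% of 2-fold changes, with 6.11% false calls. The simulation was a single draw of independent genes, without any library difference shared across genes. Its share of false calls therefore does not carry over to the calls in the real libraries. Alternatives were other scalings, filters, DESeq2 1.42.0, a covariate, a replicate block and left-out libraries.

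The text names the 15 called genes per direction that changed most ( mean log2 CPM of 1 or more, no overlap, a proper symbol), up to 4 members of each list by p, a fixed panel, the 12 largest day 0 rises, and 5 genes per direction for the difference; not all are printed, and some are not reported here. The members and lists were chosen with earlier results of these data known. Of 600 list entries 593 were found by symbol, and 41297 of 41325 gene IDs were found in GENCODE M21 (GRCm38), which gave coordinates.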

Additional observations from a re-analysis of the deposited data

Results flagged for a closer look

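In 208 groups of 4 libraries, 4 held a library far from the other 3, where chance gives about 1 in 20 groups. Cdsn had 28.5 CPM in untreated library 1, against 36.5 to 37.7 CPM in the other untreated ones. Eml5 had 1.25 CPM in IL-13 library 3, against 2.26 to 2.46 CPM in the others. Per3 had 11.7 CPM in the same library, against 17.9 to 18.8 CPM. Dlk1 had 1.78 CPM in untreated library 2, against 1.29 to 1.35 CPM.

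The IL-13 effect differed between the days in 33 of the named genes, by the test of the difference over 16 libraries. Values are the log2 effect at day 6 minus that at day 0. Among early IL-13 targets the difference was -7.72 in Ccl11, -6.59 in Serpina3g, -6.36 in Serpina3n, -6.25 in Rasgrf2, -5.59 in Serpina3c, -4.02 in Crispld2, -3.26 in Aif1l, -3.11 in Pcolce2, -2.96 in Enpp3, -2.68 in Daglb, -2.62 in Cish, -2.48 in Aldh1a7, -1.83 in Ezr, -1.51 in Tgm2 and -1.23 in Il4ra. Among fat cell and precursor genes it was 0.70 in Cebpa, 0.43 in Agpat2, 0.40 in Lpl, -0.53 in Pparg, -1.10 in Dlk1 and -1.71 in Plin1, which had 0.115 CPM in untreated day 0 cells. The effect was higher at day 6 by 2.14 in Rspo2, 1.52 in Ccdc3, 1.45 in Gas2, 1.34 in Mme, 1.33 in Slc1a3, 1.09 in Nrp2, 1.08 in Gbp2 and 0.62 in Pir. It was lower at day 6 in Snhg14 (-1.86), Klhdc8b (-1.76), Calr (-0.45) and Psat1 (-0.33).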

How the results depend on the processing

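The 809 calls at day 6 became 1470 with DESeq2, 1405 with all 16 libraries in 1 fit, 33 at an adjusted p under 0.01, 0 with the index of nuclear RNA as covariate and 2 without untreated libraries 1 and 2, and ran from 60 to 2328 with 1 library left out; the cause was not tested. The replicate block gave 2812 calls at day 6, 1787 in place of 1061 for the difference between the days, and 13 in place of 4 for the early targets, with Serpina3g (adjusted p = 0.0168), Serpina3n (0.0175) and Serpina3c (0.0122) among them. Same-numbered libraries correlated at 0.274, 0.0239, 0.249 and 0.277, and untreated library 2 correlated best with IL-13 library 1 (0.328). Pairing was accepted only where all pairs correlated, and the second did not, although the other 3 did. The 4 early targets became 0 with the covariate and 0 without untreated libraries 1 and 2, and ran from 1 to 7 with 1 library left out. Of 72 named called genes, 46 were still called with total-count scaling (26 lost), 2 without untreated libraries 1 and 2, and 8 in all leave-one-out fits; 0 changed sign in any of these. Among uncalled genes, total-count scaling reversed Pparg (-0.0320), Fabp4 (-0.00887), Slc2a4 (-0.0742), Stat6 (-0.0486), Nrp2 (-0.0740) and Mme (-0.0648). Leaving out untreated libraries 1 and 2 reversed Pparg (-0.0291), Slc2a4 (-0.0378) and Ccl11 (0.184). With 1 library left out Slc2a4 ran from -0.0214 to 0.0512, Ccl11 from -0.611 to 0.0337, Daglb from -0.0628 to 0.0408, Nrp2 from -0.0318 to 0.0432 and Mme from -0.0243 to 0.0703. Depth limits genes near 1 CPM, where each library holds few counts.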
